A study of Mus musculus with 15 samples.

Results

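The genes described here are 10 genes of T cells and cytotoxic lymphocytes, namely Cd3d, Cd3e, Cd3g, Cd4, Cd8a, Cd8b1, Nkg7, Gzma, Gzmb and Prf1, taken by symbol from the 55359 genes of the expression matrix. They were followed in 15 mouse samples, 3 in each of 5 groups. The group 46LCNEC_cell is a line of large cell neuroendocrine carcinoma grown as a monolayer (dishes A, B and C, passage 17), and 57SCLC_cell is a line of small cell lung carcinoma grown in suspension (flasks A, B and C, passage 11). Tumors 312, 319 and 321 (46LCNEC_allo) and tumors 275, 316 and 317 (57SCLC_allo) grew under the skin of QKO mice that received these cells, and Lung is normal lung of littermates CT3, CT4 and CT5. The lines came from lung tumors of QKO mice, which carry floxed alleles that include Rb1 and Trp53 and a null Rbl1 gene. Cre was delivered to the airways by adenovirus, under the CMV promoter for 46LCNEC and the keratin K5 promoter for 57SCLC, so each tumor type is represented by a single line. The recipients were immunocompetent QKO mice, which keep their own T cells and carry the same alleles without Cre. Ages of the animals were not given in the sources used here.

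Most T cells recognise antigen with a receptor of alpha and beta chains, which passes its signal on through the CD3 chains. Helper T cells carry CD4 and killer T cells carry CD8, a dimer of alpha and beta chains. Killer T cells and natural killer (NK) cells empty granules onto their targets, in which perforin opens the membrane and granzymes, which are serine proteases, cut proteins of the target cell. In bulk RNA, fewer cells of a type and less RNA of a gene per cell cannot be told apart.

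The 10 genes lie at few places in the genome (GRCm39, the build of the files, with GENCODE M39 gene models). Cd3g (chromosome 9, 44880870 to 44891735), Cd3d (44893083 to 44899173) and Cd3e (44910037 to 44920925) are neighbors, with gaps of 1347 and 10863 bases between them. Cd8b1 (chromosome 6, 71299772 to 71315087) lies 35323 bases from Cd8a (71350411 to 71356157), and Cd4 is on the same chromosome at 124841655 to 124874758. Nkg7 is on chromosome 7 (43086497 to 43087678), Prf1 on chromosome 10 (61133546 to 61140461), Gzma on chromosome 13 (113230355 to 113237524) and Gzmb on chromosome 14 (56496295 to 56499717). All 10 genes are protein coding, and reads were counted over their exons.

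Promoter windows of 300 bases, from 250 before to 50 after the start of the gene, were read from RefSeq (GRCm38.p6) for the 8 members that the table holds. Of these, the windows of Cd3d and Cd3e stand for the T cell receptor complex, those of Nkg7, Prf1, Gzma and Gzmb for the cytotoxic granule, and those of Gzmd and Gzme, granzymes of the Gzmb cluster, are shown because these genes parted from Gzma in the tumors. Capitals mark TGTGGT, a core bound by RUNX factors, and GGAAGT, a core bound by ETS factors, on either strand (as ACCACA and ACTTCC on the other strand), and no 2 marked cores overlap.
Cd3d (chr9:44981536-44981835, plus strand): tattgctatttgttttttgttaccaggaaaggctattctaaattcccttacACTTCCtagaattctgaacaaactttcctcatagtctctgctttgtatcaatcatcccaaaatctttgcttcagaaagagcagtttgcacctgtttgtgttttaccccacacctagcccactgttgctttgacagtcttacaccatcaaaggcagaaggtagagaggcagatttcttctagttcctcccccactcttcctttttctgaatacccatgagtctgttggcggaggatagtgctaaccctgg
Cd3e (chr9:45009562-45009861, minus strand): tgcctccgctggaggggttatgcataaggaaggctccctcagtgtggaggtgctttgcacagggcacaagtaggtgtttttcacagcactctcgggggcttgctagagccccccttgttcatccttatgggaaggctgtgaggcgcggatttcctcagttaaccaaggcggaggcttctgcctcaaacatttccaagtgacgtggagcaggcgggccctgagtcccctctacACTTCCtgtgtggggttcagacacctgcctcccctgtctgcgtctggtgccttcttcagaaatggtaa
Nkg7 (chr7:43436888-43437187, plus strand): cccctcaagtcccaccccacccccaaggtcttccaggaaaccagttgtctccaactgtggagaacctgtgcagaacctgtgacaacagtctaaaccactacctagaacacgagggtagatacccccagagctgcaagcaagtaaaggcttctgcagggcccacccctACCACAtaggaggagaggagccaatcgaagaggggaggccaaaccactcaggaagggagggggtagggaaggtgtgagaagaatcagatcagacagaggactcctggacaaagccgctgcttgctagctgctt
Gzma (chr13:113100932-113101231, minus strand): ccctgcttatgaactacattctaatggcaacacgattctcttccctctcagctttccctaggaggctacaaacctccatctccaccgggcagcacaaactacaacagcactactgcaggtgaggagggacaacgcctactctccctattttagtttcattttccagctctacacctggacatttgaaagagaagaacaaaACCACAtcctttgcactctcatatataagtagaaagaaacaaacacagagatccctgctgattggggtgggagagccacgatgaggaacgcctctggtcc
Gzmb (chr14:56262285-56262584, minus strand): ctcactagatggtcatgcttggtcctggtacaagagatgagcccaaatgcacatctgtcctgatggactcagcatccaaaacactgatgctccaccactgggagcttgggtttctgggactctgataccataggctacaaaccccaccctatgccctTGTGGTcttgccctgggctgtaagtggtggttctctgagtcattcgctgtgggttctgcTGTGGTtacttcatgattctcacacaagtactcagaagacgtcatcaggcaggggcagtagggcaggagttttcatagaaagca
Prf1 (chr10:61297586-61297885, plus strand): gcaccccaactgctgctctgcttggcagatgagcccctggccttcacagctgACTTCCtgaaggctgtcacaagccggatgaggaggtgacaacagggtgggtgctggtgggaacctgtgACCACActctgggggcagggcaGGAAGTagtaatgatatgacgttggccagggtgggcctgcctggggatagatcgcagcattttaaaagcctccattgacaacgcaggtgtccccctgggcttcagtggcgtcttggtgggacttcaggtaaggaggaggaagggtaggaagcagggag
Gzmd (chr14:56132544-56132843, minus strand): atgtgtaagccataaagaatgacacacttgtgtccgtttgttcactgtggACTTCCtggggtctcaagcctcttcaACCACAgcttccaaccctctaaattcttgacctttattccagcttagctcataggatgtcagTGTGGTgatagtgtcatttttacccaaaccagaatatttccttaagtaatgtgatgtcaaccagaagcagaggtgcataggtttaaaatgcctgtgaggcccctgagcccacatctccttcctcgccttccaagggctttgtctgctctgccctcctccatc
Gzme (chr14:56120576-56120875, minus strand): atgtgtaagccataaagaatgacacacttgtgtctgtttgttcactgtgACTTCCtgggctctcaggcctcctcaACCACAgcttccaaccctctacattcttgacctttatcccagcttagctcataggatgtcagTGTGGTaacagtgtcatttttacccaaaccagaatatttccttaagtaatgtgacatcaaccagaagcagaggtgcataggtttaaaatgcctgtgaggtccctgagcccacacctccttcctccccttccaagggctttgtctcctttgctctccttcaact

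The RUNX core was found in the windows of Nkg7, Gzma and Prf1 (1 match each) and Gzmb (2 matches), and in none of those of Cd3d, Cd3e, Cd3g and Cd8a. It occurs in 16.8% of all 32851 windows of this length in the table. The ETS core was found in the windows of Cd3d and Cd3e (1 match each) and Prf1 (2 matches), against 23.8% of all windows. The windows of Gzmd and Gzme were 94.3% identical over 297 aligned bases. A match is a description of the letters and not a binding site.

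Values are normalized counts, the reads of a gene divided by a size factor per sample. The reads counted ranged from 9480244 (tumor 275) to 44876572 per sample, so 3 reads, taken as the floor of detection, correspond to 1.56 to 7.18 normalized counts. Replicates were separate dishes, flasks, tumors or animals, and the counts of each pair of replicates differed beyond counting noise. The markers of the labels were as follows. Ptprc, which encodes the pan-leukocyte protein CD45, was at 0 to 5.63 in the cultures, 504 to 2730 in the tumors and 3560 to 3891 in Lung. Sftpc, the surfactant gene of alveolar cells, was at 58062 or more in each Lung sample and at 22.6 or less in every other sample. The neuroendocrine genes Chga and Syp were at 8951 and 658 or more in all samples of 57SCLC. They were at 18.5 and 15.5 or less in all samples of 46LCNEC. In RNA, these genes go against the neuroendocrine name of that line. The paper reports protein staining for NCAM, SSTR2 and CGRP in its cell lines, and for chromogranin A in LCNEC tumors grown from them. The epithelial gene Epcam was at 12781 or more in 57SCLC and at 103 or less in 46LCNEC.

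In culture the genes were at or close to 0. Cd3d, Cd3e, Cd3g and Gzmb had no read in any of the 6 cultures. Cd8a and Nkg7 had 1 read each and Gzma 2 reads over all 6 cultures. Cd8b1, at 0 to 2.18 normalized counts, passed 3 reads in 1 culture, and Prf1, at 0 to 4.17, in 2 cultures. Cd4 was the only member seen in every culture, at 2.81, 6.62 and 5.38 in 46LCNEC_cell and at 3.27, 5.43 and 9.90 in 57SCLC_cell. In Lung all 10 genes had at least 68.0 normalized counts in every sample. Against Lung, all 10 were called lower in 46LCNEC_cell and in 57SCLC_cell, where 35.0% and 32.7% of all genes tested were called lower (limma, with p adjusted after Benjamini-Hochberg no higher than 0.01 and at least a 2-fold difference, where SE below is the standard error of a log2 fold change). Measured against the floor of 3 reads, Cd3e was at least 127-fold and Cd8a at least 137-fold lower in 46LCNEC_cell, and Cd3e was at least 214-fold and Nkg7 at least 144-fold lower in 57SCLC_cell. No member reached the filter of 10 normalized counts in 3 samples when the lines were compared with each other, so none was tested there, while 46.1% of all genes tested were called.

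The chains of the receptor complex were lower in the tumors than in Lung, and the tumors of 46LCNEC did not behave alike. Cd3e was at 3.97, 2.11 and 150 in tumors 312, 319 and 321, at 26.3, 16.99 and 19.3 in tumors 275, 316 and 317, and at 419, 329 and 323 in Lung. Cd3d was at 3.97, 1.05 and 67.5 in 46LCNEC_allo, at 19.1, 7.08 and 7.94 in 57SCLC_allo, and at 200.3, 166 and 197 in Lung. Cd3g was at 2.65, 3.16 and 166 in 46LCNEC_allo, at 33.5, 24.1 and 35.2 in 57SCLC_allo, and at 255, 277 and 243 in Lung. For each of the 3 chains the samples fell in the same order, with tumors 312 and 319 lowest, the 57SCLC tumors next, tumor 321 above them and Lung highest, and no tumor reached the lowest Lung sample.

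The coreceptors kept that order in part. Cd8a, the alpha chain of CD8, was at 13.2, 2.11 and 403 in 46LCNEC_allo, at 38.3, 32.6 and 42.0 in 57SCLC_allo, and at 409, 424 and 321 in Lung. Cd8b1, the beta chain, was at 2.65, 4.21 and 103 in 46LCNEC_allo, at 11.97, 8.49 and 10.2 in 57SCLC_allo, and at 204, 159 and 149.8 in Lung. Tumor 321 lay within the range of Lung for Cd8a, at 105% of the Lung mean, and below it for Cd8b1. Cd4 was at 75.5, 57.9 and 466 in 46LCNEC_allo, at 229.8, 132 and 158 in 57SCLC_allo, and at 694, 657 and 582 in Lung. Cd4, which some dendritic cells also carry, was the member that stayed closest to Lung in tumors 312 and 319, at 11.7% and 8.98% of the Lung mean.

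Among the granule genes, Nkg7, which encodes a membrane protein of cytotoxic granules, was at 6.62, 0 and 133 in 46LCNEC_allo, at 19.1, 14.2 and 15.9 in 57SCLC_allo, and at 241, 219 and 262 in Lung. Prf1, the perforin gene, was at 0, 1.05 and 165 in 46LCNEC_allo, at 64.6, 31.1 and 17.02 in 57SCLC_allo, and at 518, 505 and 352 in Lung. Both had Lung above every tumor. Gzmb was at 1.32, 2.11 and 75.2 in 46LCNEC_allo, at 52.7, 15.6 and 23.8 in 57SCLC_allo, and at 68.0, 126 and 86.6 in Lung, and tumor 321 was above 1 Lung sample. Gzma had no read in tumors 312, 319, 275 and 316, was at 16.6 in tumor 321 and 4.54 in tumor 317, and was at 309, 363 and 242 in Lung. It was the member with the widest gap between Lung and the tumors.

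**Figure D1:**
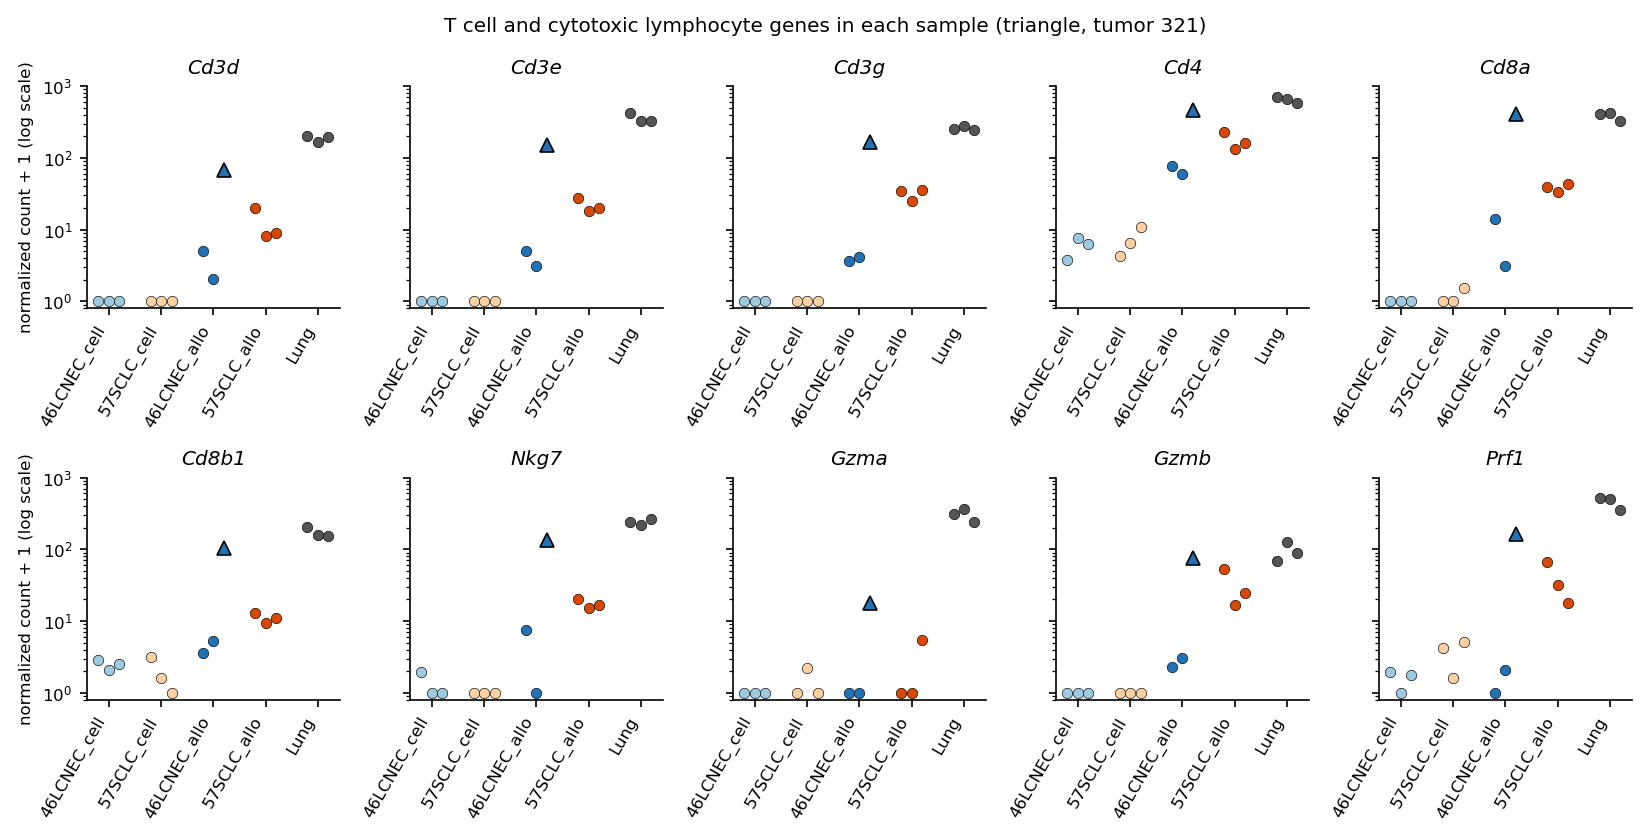
Normalized count + 1 (log scale) of each of the 10 genes in each sample, with 1 point per sample, colored by group, and tumor 321 drawn as a triangle. The cultures lie at or near the bottom, Lung at the top, and tumor 321 above both other 46LCNEC tumors in all 10 panels.

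In the comparison of 57SCLC_allo with Lung, 9 of the 10 genes were called lower, where 26.9% of all genes tested were called lower. Cd3e was lower by a log2 fold change of -4.05 (SE 0.24, adjusted p = 2.72e-06, limma), Cd8a by -3.32 (SE 0.20, adjusted p = 3.07e-06) and Gzma by -7.41 (SE 0.67, adjusted p = 2.49e-05). The smallest called change was that of Cd4, at -1.93 (SE 0.21, adjusted p = 7.54e-05). Gzmb, at -1.71 (SE 0.46), did not pass, with adjusted p = 0.0107 in limma. The median over the 10 genes was -3.78 on the log2 scale, beside -0.09 over all genes. The means in 57SCLC_allo were between 0.497% (Gzma) and 32.8% (Gzmb) of those in Lung. With all 15 samples in 1 model, 5 of the 10 genes were called.

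In the comparison of 46LCNEC_allo with Lung, Gzma alone was called lower, at -6.86 on the log2 scale (SE 1.12, adjusted p = 0.00199, limma), where 22.1% of all genes tested were called lower. The other 9 had log2 fold changes between -2.33 (Cd4) and -6.02 (Prf1), with standard errors of 0.75 to 1.83 and adjusted p of 0.0184 to 0.0789. These are differences of mean log2 values, which count tumor 321 as 1 of 3. The median over the 10 genes was -4.33 in limma, -2.23 in edgeR and -2.28 in DESeq2, and the ratio of the group means was 8.29 for Prf1. Tumor 321 was left out after its values were seen, here and in the fits without it below. The counts and adjusted p of those fits are therefore no support by themselves. Without tumor 321, all 10 were called lower, with 25.3% of all genes called lower in that fit. Cd3e was then at -6.50 (SE 0.32, adjusted p = 4.25e-05, limma), Prf1 at -8.30 (SE 0.41, adjusted p = 4.29e-05) and Cd4 at -3.26 (SE 0.19, adjusted p = 7.03e-05). Without Lung sample CT3 or CT4, 0 were called by limma, with 4 of the 10 at an unadjusted p under 0.05 in each case.

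**Figure D2:**
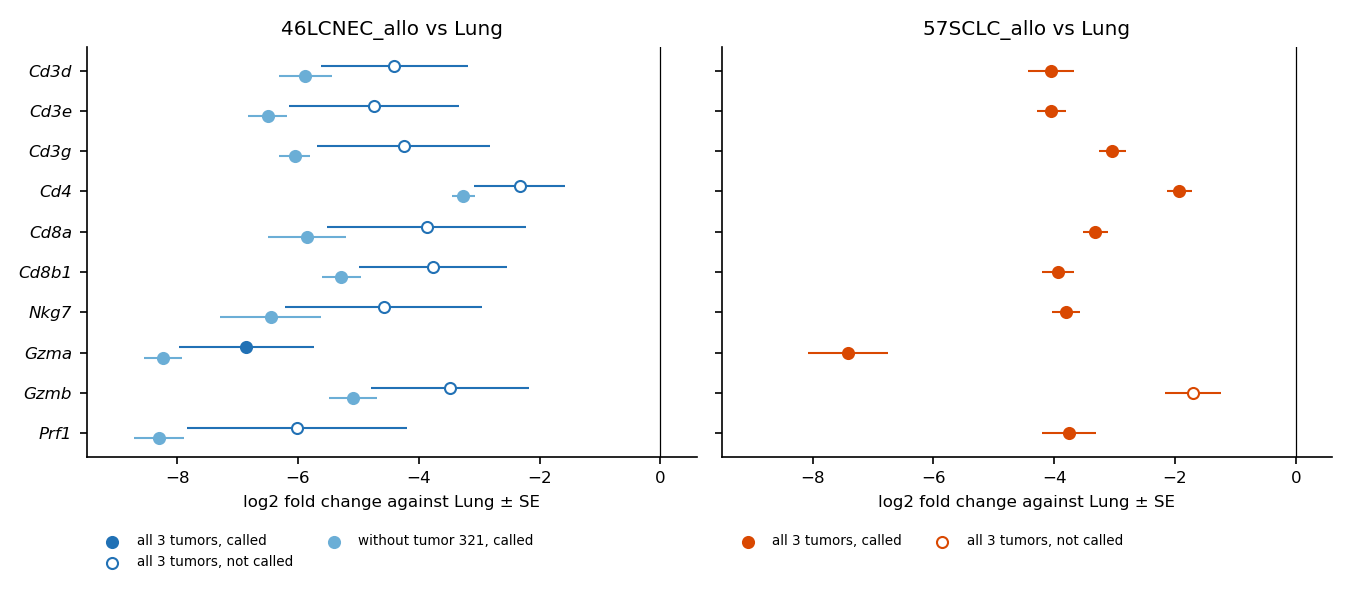
Log2 fold change against Lung (x axis) of each gene in 46LCNEC_allo (left) and 57SCLC_allo (right), with bars of 1 standard error. Filled points were called. On the left only Gzma is filled with all 3 tumors, and all 10 are filled without tumor 321.

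**Figure D3:**
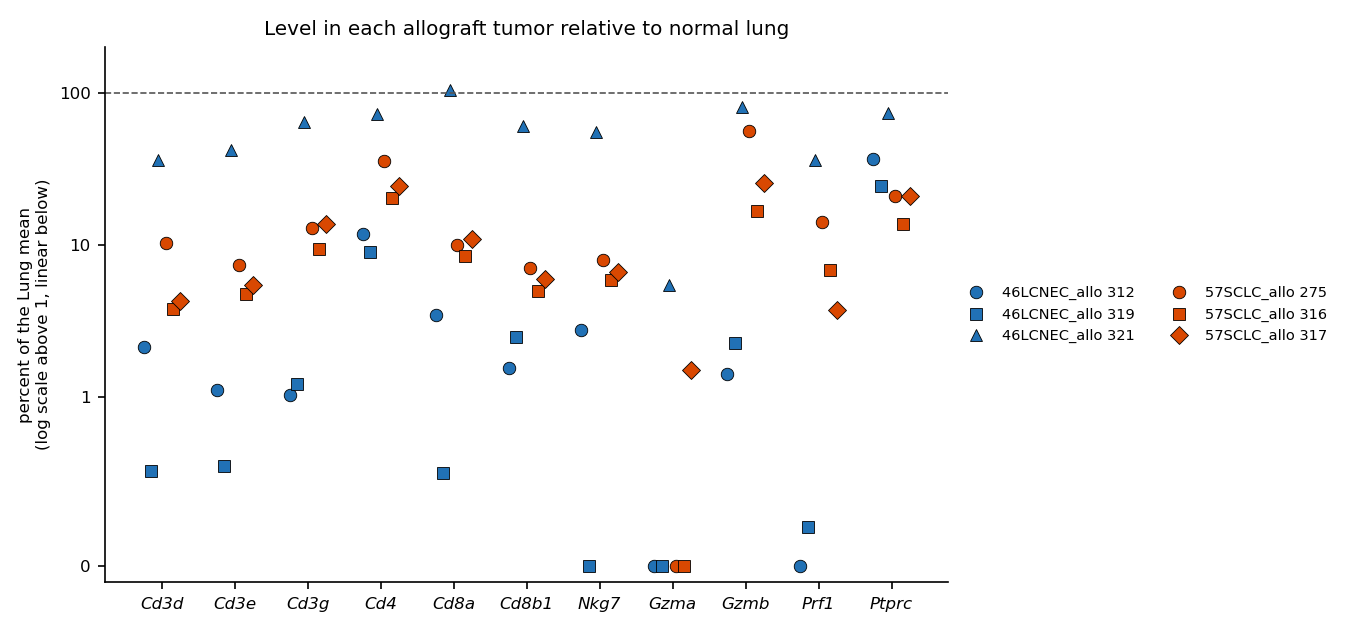
Level of each gene and of Ptprc in each of the 6 tumors as a percent of the Lung mean (dashed line at 100), on an axis that is logarithmic above 1 and linear below. The median over the 10 genes is 57.7% in tumor 321, 1.48% and 0.575% in tumors 312 and 319, and 10.1%, 6.33% and 6.29% in tumors 275, 316 and 317.

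Tumor 321 was above both other 46LCNEC tumors in all 10 genes, as it was in 35% of the 16542 genes with a group mean of at least 10. With the others set to no less than 3 reads, it was at least 5-fold above both in 9 of the 10 members. The share of the 16542 genes at least 5-fold above both was 2.51%. Cd4 was 6.17 times its level in the higher of tumors 312 and 319 (95% counting interval 4.67 to 8.29) and Cd8a 30.4 times (16.3 to 63.9). The ratio was 37.9 for Cd3e (12.7 to 186) and 157 for Prf1 (27.7 to 6227), where the other tumor had 3 reads and 1 read. Gzma, with no read in the other tumors, was at least 4.18-fold higher against the floor of 3 reads. No test was made of tumor 321 against the others, since it was singled out by these values. In 57SCLC_allo and Lung no member was 5-fold above both other samples in any sample. Ptprc was at 1359, 899 and 2730 in tumors 312, 319 and 321, with tumor 321 again the highest. The sum of Cd3d, Cd3e and Cd3g was 0.00780 and 0.00703 of the Ptprc value in tumors 312 and 319, 0.141 in tumor 321, 0.0803 to 0.102 in 57SCLC_allo and 0.210 to 0.225 in Lung.

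Some genes of other immune cells were also higher in tumor 321. The summed level of the 8 B cell genes, of which Ms4a1 was listed at 0 in all samples, was 455 to 670 in the other 46LCNEC tumors, 3739 in tumor 321, and 7362 to 10702 in Lung. Ighm alone was at 3266 in tumor 321, while Cd79a was at 108 there and 141 in tumor 319. Of 7 B cell genes with a group mean of at least 10, 5 were higher in tumor 321 than in both others, against 35% of all such genes. The summed level of the 8 pan-leukocyte genes was 6991 to 9547 in the other 46LCNEC tumors and 15479 in tumor 321. Ncr1, the gene of an activating receptor of NK cells, singled out after its values were seen, was at 3.97, 2.11 and 83.0 in these tumors and at 229 to 380 in Lung. The summed level of the 12 NK cell genes was 980, 1639 and 2127 in tumors 312, 319 and 321. Most of this sum was Nfil3 in tumors 312 and 319, so it says little of the other NK cell genes. Of 8 NK cell genes with a group mean of at least 10, 7 were higher in tumor 321 than in both others. With the others set to no less than 3 reads, 5 were at least 5-fold higher, against 2.51% of all such genes. Nfil3 went the other way, at 856, 1552 and 723. The summed level of the 10 macrophage genes was 44439 to 61238 in tumors 312 and 319 and 95663 in tumor 321. The part of these cells in the values of tumor 321 was not tested.

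In 57SCLC_allo against 57SCLC_cell, 7 genes were tested and all 7 were called higher (Cd3e, Cd3g, Cd4, Cd8a, Nkg7, Gzmb and Prf1), where 14.4% of all genes tested were called higher. These genes were at or near 0 in culture and passed the filter through the tumors, so the count alone carries little. Cd3d, Cd8b1 and Gzma did not pass the filter. Against the floor of 3 reads, Cd3g was at least 18.5-fold, Gzmb at least 18.4-fold, Cd3e at least 12.5-fold and Nkg7 at least 9.82-fold higher in the tumors than in culture. Cd4, which had reads in each flask, was higher by 4.66 on the log2 scale (SE 0.39, adjusted p = 3.38e-05, limma), and Prf1 by 3.36 (SE 0.60, adjusted p = 0.00284). Prf1 was not called without tumor 275 or without tumor 316.

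In 46LCNEC_allo against 46LCNEC_cell, Cd4 was the only member tested, and it was called higher by 4.49 on the log2 scale (SE 0.78, adjusted p = 0.0027, limma), where 14.4% of all genes tested were called higher. Cd4 was under 10 normalized counts in each dish and passed the filter through the tumors, so the call alone carries little. Without tumor 321 it was higher by 3.56 (SE 0.42, adjusted p = 0.000961), with 13.9% of all genes called higher. It lost the call when any of dishes A, B or C was left out. The other 9 genes passed 10 normalized counts in fewer than 3 of these 6 samples.

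Between the tumor types, 0 of the 8 members tested in 57SCLC_allo against 46LCNEC_allo were called by limma, edgeR or DESeq2, and 0 had an unadjusted p under 0.05 in any of the 3 tools, where 30.4% of all genes tested were called in limma, 16.1% as higher in 57SCLC_allo. The log2 differences ran from -0.17 (Cd8b1) to 2.27 (Prf1), with standard errors of 0.77 to 1.86. Their median was 0.74 in limma but -1.09 in edgeR and -1.07 in DESeq2, so that the sign of the summary depends on the tool while tumor 321 is included. Without tumor 321, 4 of the 8 were called higher in 57SCLC_allo, where 17.3% of all genes tested were called higher. Tumor 321 was left out after its values were seen, and the 4 genes, at 0 to 3.97 in tumors 312 and 319, passed the filter through the 57SCLC tumors, so the count is no support by itself. They were Cd3g, higher by 3.02 (SE 0.40, adjusted p = 0.00151, limma), Cd3e by 2.45 (SE 0.45, adjusted p = 0.00545), Gzmb by 3.38 (SE 0.61, adjusted p = 0.00485) and Prf1 by 4.55 (SE 0.69, adjusted p = 0.00255). Cd4, Cd8a, Cd8b1 and Nkg7 were at 1.34 to 2.65 with adjusted p of 0.0149 to 0.0463.

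The difference between the lines in the change from culture to tumor was tested with an interaction term. Of the 8 members tested, 0 were called by limma, edgeR or DESeq2, and 0 had an unadjusted p under 0.05, where 17.5% of all genes tested were called in limma. Without tumor 321, 3 of the 8 were called, with a larger change in 57SCLC, where 12.6% of all genes tested were called in that direction. They were Cd3g at 3.02 (SE 0.49, adjusted p = 0.000693, limma), Gzmb at 3.38 (SE 0.66, adjusted p = 0.0021) and Cd3e at 2.45 (SE 0.53, adjusted p = 0.00386). These 3 genes too passed the filter through 57SCLC_allo alone. As they had no read in any culture, the values are those of the difference between the tumors.

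Within the granzyme family the tumors and Lung differed in which genes were expressed. The family has 10 genes on the list used here, of which Gzmb to Gzmg and Gzmn form a cluster of 7 genes on chromosome 14 (56355083 to 56499717 in GRCm39). Gzme was at 74.2, 77.9 and 118 in tumors 275, 316 and 317, at 11.1 in tumor 321, and had no read in Lung or in tumors 312 and 319. Gzmd was at 21.5, 34.0 and 34.0 in 57SCLC_allo and 21.0 in tumor 321, and Gzmc was at 14.4, 15.6 and 19.3 in 57SCLC_allo and 22.1 in tumor 321. Neither had a read in Lung. Gzmg was at 19.2, 15.6 and 2.27 in 57SCLC_allo and 89.6 in tumor 321, again with no read in Lung. Against the floor of 3 reads, Gzme was at least 30.9-fold, Gzmd at least 10.2-fold and Gzmc at least 5.63-fold higher in 57SCLC_allo than in Lung.

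Per kilobase of exon, and leaving out Gzmm, Gzma made up 80.5%, 72.7% and 70.6% of the summed granzyme level in the Lung samples and Gzmb 19.1%, 27.1% and 27.1%, with the remainder in Gzmk. In 57SCLC_allo the genes Gzmc to Gzmg made up 77.2%, 92.1% and 88.2% and Gzma 0%, 0% and 1.41%. In tumor 321 these shares were 70.2% and 4.88%. The summed level itself was closer, at 178, 164 and 208 per kilobase in 57SCLC_allo, 220.1 in tumor 321 and 248, 323 and 222 in Lung. Tumors 312 and 319 had 3 and 4 granzyme reads in all, too few to give shares. The transcripts of Gzmd and Gzme were 94.9% identical over 915 aligned bases and those of Gzmd and Gzmg 89.3%, so the split of reads among them is uncertain, while Gzma shared no aligned stretch over 188 bases with any other granzyme.

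**Figure D4:**
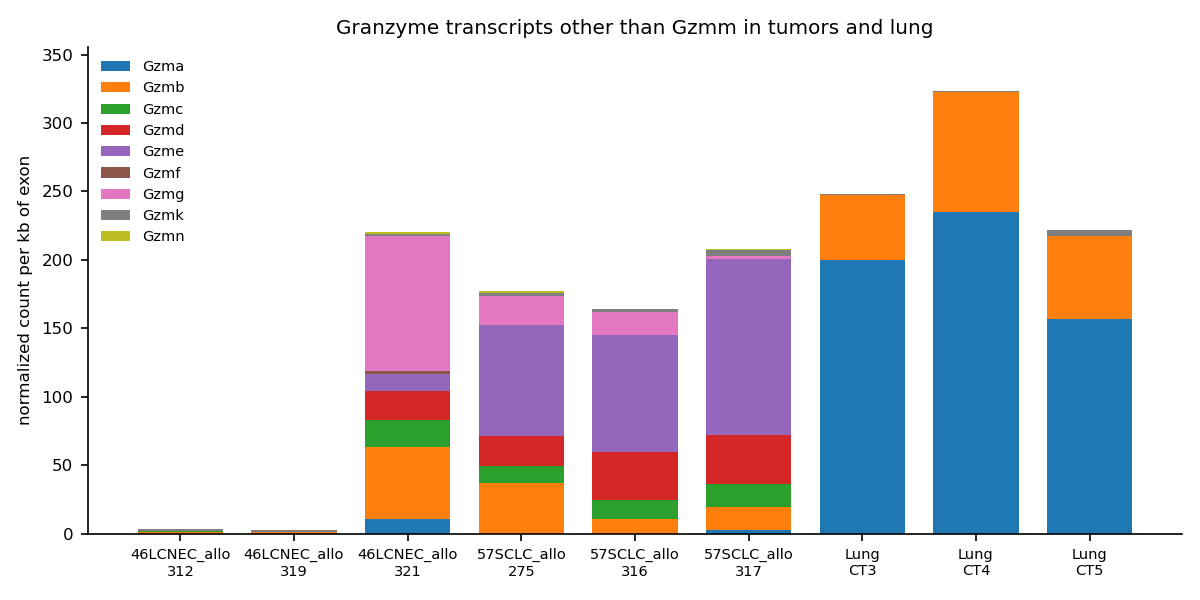
Normalized counts per kilobase of exon of 9 granzyme genes, stacked, in each tumor and Lung sample. Lung bars consist of Gzma and Gzmb, Gzme is the largest part of each 57SCLC bar, beside Gzmb, Gzmc, Gzmd and Gzmg, tumor 321 shows much Gzmg, and tumors 312 and 319 are near 0.

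Of the remaining granzymes, Gzmf, Gzmk and Gzmn stayed at or under 7.02 normalized counts in every sample. Gzmm was not a marker of lymphocytes in these samples, since its reads were also counted in the cultured cells. It was at 270.0 to 281 in 57SCLC_cell and 70.6 to 89.2 in 46LCNEC_cell, against 114 to 151 in Lung. Of its exonic bases, 30.4% overlap the gene Gm68542 on the other strand, and the part of that gene in these values was not tested. In the test of 57SCLC_allo against Lung, 3 granzymes were called higher (Gzmc, Gzmd and Gzme) and 1 lower (Gzma) of 6 tested, where 18.9% of all genes tested were called higher and 26.9% lower. The 3 higher ones had no read in Lung and were tested only because the tumors expressed them. In 46LCNEC_allo against Lung, Gzma and Gzmm were called lower of 3 tested and Gzmb was not (adjusted p = 0.0544, limma), where 22.1% of all genes were called lower, and all 3 were called without tumor 321, where 25.3% were.

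Ratios of genes within a sample, of the members and of Ncr1 and Ptprc among others, were compared between 57SCLC_allo and Lung. They are uncorrected for length, and the 12 pairs were chosen with the values known. Gzma was 4.54, 2.89 and 2.80 times Gzmb in Lung, 0 times in tumors 275 and 316, 0.190 times in tumor 317 and 0.221 times in tumor 321. Cd4 was 1.66, 2.00 and 1.80 times Cd3e in Lung and 8.73, 7.75 and 8.18 times in 57SCLC_allo. It was 19.0 and 27.5 times Cd3e in tumors 312 and 319, on 3 and 2 reads of Cd3e, and 3.10 times in tumor 321. Gzmb was 0.162 to 0.382 times Cd3e in Lung and 0.917 to 2.00 times in 57SCLC_allo. Ncr1 was 0.710 to 1.11 times Cd3e in Lung and 0.167 to 0.273 times in 57SCLC_allo, and these 4 ratios did not overlap between the groups. Of all 12 ratios 10 did not overlap and 2 did, namely Prf1 to Cd3e (0.882 to 2.46 in 57SCLC_allo, 1.09 to 1.53 in Lung) and Nkg7 to Cd3e (0.727 to 0.833 and 0.576 to 0.812). The share of such ratios among other pairs of genes was not computed, so the count of 10 carries little. On the scale of log2 with 1 added to each gene, the differences were -5.71 for Gzma to Gzmb, 2.12 for Cd4 to Cd3e, 2.34 for Gzmb to Cd3e and -1.90 for Ncr1 to Cd3e. Each of the 10 had p = 0.1 in a two-sided exact permutation test, the smallest that 3 against 3 samples allow, and 0.12 after Benjamini-Hochberg adjustment over the 12 ratios.

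**Figure D5:**
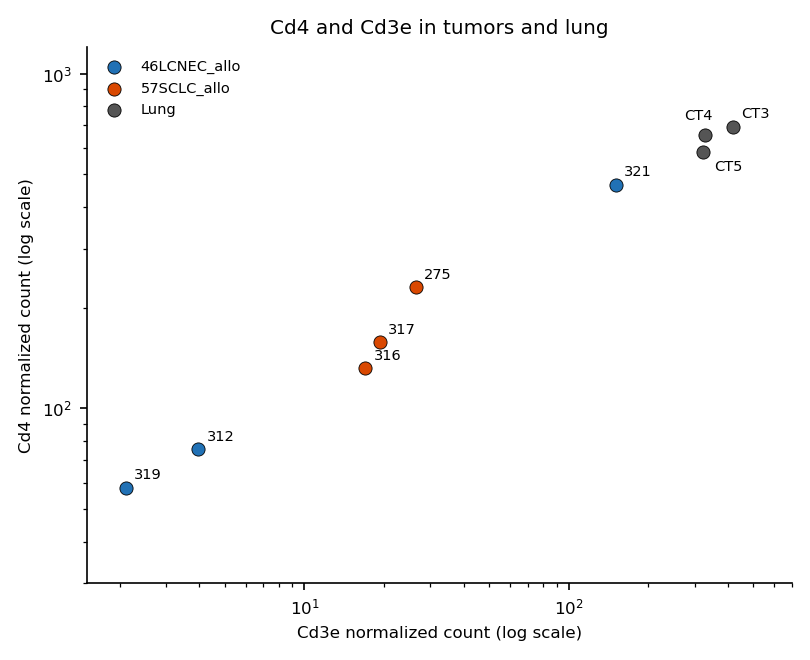
Cd4 against Cd3e in normalized counts (both axes logarithmic) in each tumor and Lung sample, labelled by animal. Cd3e spans 2.11 to 419 and Cd4 57.9 to 694, so that tumors low in Cd3e keep more Cd4 relative to it.

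Other genes of the T cell receptor and its signaling were mostly lower in 57SCLC_allo than in Lung, and some of them were expressed by the tumor cells themselves. The list holds 20 genes, of which Lcp2, Cd27 and Ptprcap were listed at 0 in all samples and 17 were tested. In 57SCLC_allo against Lung 14 were called lower and 1, Bcl11b, higher, with a median of -3.28 on the log2 scale, where 26.9% of all genes tested were called lower. Trdc, which encodes the constant part of the delta chain of gamma-delta T cells, was at 0, 1.42 and 2.27 in the 57SCLC tumors against 44.5 to 57.6 in Lung. Zap70, a kinase of the receptor pathway, singled out after its values were seen, was at 251 to 286 in cultured 57SCLC cells, which had no read of Cd3d, Cd3e or Cd3g, and at 170 to 246 in 57SCLC_allo. In 46LCNEC_allo against Lung 2 of 17 were called lower (Bcl11b and Trdc), a share below the 22.1% of all genes, and 15 were called without tumor 321.

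Variable segments of the receptor chains were looked at after the member values had been seen. Only those of the beta chain (Trbv) could be counted in all tissues with host cells. Of 35 Trbv genes, 19, 20 and 17 had a read in the Lung samples (157 to 369 reads), and 20 had a read in tumor 321 (96 reads). In tumors 312 and 319, 3 and 4 had a read (14 and 4 reads), and in tumors 275, 316 and 317 the numbers were 6, 6 and 7 (6 to 15 reads). No culture had a Trbv read. Segments of the alpha chain (Trav) did not set the 57SCLC tumors apart from their cultures, with 2, 1 and 3 reads in 57SCLC_allo and 4, 4 and 3 in 57SCLC_cell. Trav had 0 to 6 reads in 46LCNEC_allo, 0 in 46LCNEC_cell and 12 to 32 in Lung. Segments of the delta and gamma chains (Trdv and Trgv) had at most 7 and 15 reads in any sample.

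The lists of NK cell genes and of T cell regulators were mostly called lower than Lung in 57SCLC_allo. Of 12 NK cell genes, 10 were tested in 57SCLC_allo against Lung and 9 were called lower, with a median of -4.47 on the log2 scale, where 26.9% of all genes were called lower. In 46LCNEC_allo 3 of 10 NK cell genes were called lower (Klrb1c, Klre1 and Klrg1), a share close to the 22.1% of all genes tested. Without tumor 321, 8 were called lower, where 25.3% of all genes were. Nfil3 was the 1 called higher with all 3 tumors. It was also expressed by the cultured 46LCNEC cells, at 2254 to 2459 against 223 to 322 in Lung. Ncr1 was at 7.18, 2.83 and 3.40 in 57SCLC_allo, a log2 fold change of -5.94 (SE 0.38, adjusted p = 3.63e-06, limma). Klrd1, an NK receptor chain, was at 14.4, 12.7 and 6.81 against 298 to 387 in Lung. Of 15 effector and subset regulators, 13 were tested, 10 called lower and 1, Runx3, higher, at 1.83 (SE 0.11, adjusted p = 2.64e-06, limma). Runx3, a RUNX factor of killer T cells, was also expressed by the cultured tumor cells. It was the 1 regulator called higher in 46LCNEC_allo too, where 7 of 14 were called lower, beside 22.1% of all genes tested. Runx3 was at 677 to 748 in 57SCLC_cell and 1860 to 2327 in 57SCLC_allo, against 529 to 590.0 in Lung. Ccr7, which guides naive T cells to lymph nodes, was at 22.7 to 57.5 in 57SCLC_allo against 936 to 1230 in Lung. Cd40lg, the ligand with which helper T cells stimulate B cells, had no read in the 57SCLC tumors, was at 12.2 in tumor 321 and at 64.4 to 68.0 in Lung. Against culture, 9 of the 10 regulators tested were called higher in 57SCLC_allo, among them Il7r, Icos, Il2ra and S1pr1, where 14.4% of all genes tested were called higher. Il7r and Icos had no read in 57SCLC_cell and Il2ra was at 0 to 1.56 there, so they were tested through the tumors.

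Of 12 genes of cytotoxic granules and killing, which include Prf1 and Nkg7, 11 were called lower in 57SCLC_allo than in Lung and 6 in 46LCNEC_allo (10 without tumor 321), where 26.9%, 22.1% and 25.3% of all genes tested were called lower in these fits. Unc13d, a factor of granule release, had a log2 fold change of -4.56 in 57SCLC_allo (SE 0.17, adjusted p = 2.33e-07, limma). Among pan-leukocyte genes 6 of 8 were called lower in 57SCLC_allo and 1, Itgb2, in 46LCNEC_allo (5 without tumor 321), the single call being a smaller share than that of all genes, with medians of -1.86 and -0.996 on the log2 scale, against -3.78 and -4.33 for the 10 members in limma. The median of the members in 46LCNEC_allo was -2.23 in edgeR and -2.28 in DESeq2. Macrophage genes went both ways, with C1qa called higher in the tumors than in Lung, at 6304 to 14066 in 57SCLC_allo and 11214 to 29839 in 46LCNEC_allo against 1957 to 2577 in Lung. The part of the overall leukocyte level in the results for the members was not tested.

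Across the 15 samples, the genes most like the CD3 chains were sought by Pearson's r of log2(normalized count + 1) with the mean of Cd3d, Cd3e and Cd3g, among 18292 genes with a mean of at least 10. The first 5 were Trbc1 (r = 0.998), a constant segment of the receptor beta chain, Cd69 (0.995), an early activation marker, H2-Eb2 (0.994), Cd2 (0.994), an adhesion molecule of T cells, and Ikzf3 (0.991), a transcription factor of lymphocytes. Of the other members, Cd8a ranked 7th (r = 0.989), Nkg7 13th (0.986), Gzmb 29th (0.977), Cd8b1 38th (0.975), Cd4 75th (0.961), Prf1 111th (0.949) and Gzma 797th (0.864). The 6 cultures sit at or near 0 for all of these genes and the samples of a group are replicates, so the values describe the pattern and carry no p.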

How the data were processed

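RNA-seq of poly-A RNA was analysed for 15 samples in 5 groups of 3, grouped by the labels. The authors aligned reads with Rbowtie2 to GRCm39, counted them per gene with featureCounts and GENCODE M27, and divided the counts by DESeq2 size factors. These deposited normalized counts are a signal, not raw counts. Reads were recovered from the smallest step of each sample, and all values came out whole (100% within 0.01 reads). Total reads ranged from 9480244 to 44876572 per sample. Intervals and the floor of 3 reads cover counting error only.

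The 10 members, the 14 gene lists and the comparisons were chosen with earlier results of these data known. Genes reaching 10 normalized counts in 3 or more of the compared samples were tested on log2(normalized count + 1), so fold changes of low genes are understated, with limma 3.58.1 (trend) in R 4.3.3. Calls needed a p, adjusted after Benjamini-Hochberg over all genes tested, no higher than 0.01 together with a 2-fold or larger difference. Each comparison used its own groups, and the interaction used both lines in culture and as tumors. Because the values were normalized counts, edgeR 4.0.16 and DESeq2 1.42.0 were run on the recovered reads as alternatives, beside other scalings, pseudocounts, filters, thresholds and samples left out. Replicates of the cultures are dishes or flasks of 1 line, so their spread may be technical. Scripts were tested on simulated data.

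All members, all granzymes, up to 4 genes of each other list (those with the largest called change), the 5 genes most like the CD3 chains, and 5 label markers were named, and others are marked as chosen after their values were seen. Promoter windows came from RefSeq (GRCm38.p6) and carry coordinates of that build. Ratios were compared with exact permutation tests in scipy 1.17.1. Some genes of these lists and samples are not reported here.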

Additional observations from a re-analysis of the deposited data

Results flagged for a closer look

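Gzme, a granzyme of the Gzmb cluster, changed differently from culture to tumor in the 2 lines. The change in 57SCLC exceeded that in 46LCNEC by 5.95 on the log2 scale (SE of the difference 1.13, adjusted p = 0.00161, limma interaction term). In that test 17.5% of all genes tested were called. Gzme was at 74.2, 77.9 and 118 normalized counts in 57SCLC_allo and had no read in 57SCLC_cell, and it was at 0, 0 and 11.1 in 46LCNEC_allo and 0.938, 1.104 and 0 in 46LCNEC_cell. Gzme passed the filter through the tumors alone. As it was at or near 0 in culture, the value is largely that of the difference between the tumors. The size of the fitted difference depends on the pseudocount, since most of these samples are at 0. The difference was called in 20 of 21 alternatives, with adjusted p from 3.63e-06 to 0.0769. The exception was edgeR (adjusted p = 0.0769), and DESeq2 gave adjusted p = 0.00538. These alternatives reuse the same samples, so their number is no support by itself. Reads of Gzme and Gzmd may be split uncertainly, and the part of this in the difference was not tested.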

How the results depend on the processing

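In 46LCNEC_allo against Lung, 1 of the 10 genes was called, and 8 were called at an adjusted p of at most 0.05 and 10 with all 15 samples in 1 model. Leaving out 1 sample gave 0 (without Lung CT3 or CT4) to 10 (without tumor 321). In 57SCLC_allo against Lung, 9 were called, 5 with all 15 samples in 1 model, and 9 to 10 with 1 sample left out. Gzmb, which was not called there, was called in 4 of 15 alternatives. In 46LCNEC_allo against 46LCNEC_cell, 1 was called, with 0 (without dish A, B or C) to 2 (without tumor 319) when 1 sample was left out. In 57SCLC_allo against 57SCLC_cell, 7 were called, 9 without the filter, 5 with all 15 samples and 6 to 8 with 1 sample left out. Between the tumor types 0 were called, with 0 to 4 when 1 sample was left out, and for the interaction 0, with 0 to 3, in both cases above 0 only without tumor 321. The cause of these differences was not tested.

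Over the 38 called fold changes of members, 557 alternative values kept direction and call, 13 lost the call and 0 reversed. Scaling by the upper quartile moved the median of all genes by 0.155 and 0.148 in 46LCNEC_cell and 57SCLC_cell against Lung, and TMM by 0.12 in 46LCNEC_cell against Lung. Depth limits the members most in tumor 275, where 1 read is worth 2.39 normalized counts. A read is worth 1.42 and 1.13 in tumors 316 and 317, and 1.32, 1.05 and 1.11 in tumors 312, 319 and 321.

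The letters A, B and C are shared by the cultures of both lines. With the letter as a replicate block, 0 members were tested or called in 57SCLC_cell against 46LCNEC_cell, and 7797 genes were called against 7799 without it. Samples with the same letter had correlations of 0.0916, -0.0837 and -0.00619 between their deviations, so the letters were not taken to pair the samples.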
